A study of Mus musculus with 13 samples.

Results

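These 561 regions of the C2C12 genome carried a peak of histone H3 lysine 27 acetylation (H3K27ac) in wild-type cells 24 h before, at, and 6 and 12 h after the change to differentiation medium, and no peak from 24 h onwards. They were chosen from the peak lists themselves. Overlapping peaks of 9 lists were merged at 1 bp into 184203 regions, and a member had a peak at -24, 0, 6 and 12 h, none in wild-type cells at 24, 48 and 72 h, and none at 48 h in the double deletions named H23 and H34. Members made up 0.305% of all regions and 1.82% of the 30810 regions with a peak at all 4 early times. What the 9 lists show about members is therefore a description, and the lists of the Myod1 knockout and of the H1 and H3 deletions did not choose them. The H3 list is only partly a separate readout, since the H23 and H34 lines also lack H3.

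C2C12 is a mouse myoblast line that proliferates in DMEM with 10% fetal bovine serum and forms multinucleated myotubes after the change to DMEM with 2% horse serum. H3K27ac was measured by chromatin immunoprecipitation and sequencing with one commercial antibody in wild-type cells at the 7 times, and at 48 h in 5 lines edited with CRISPR/Cas9. The edited lines lacked MyoD (Myod1 knockout), hotspot H1, hotspot H3, hotspots H2 and H3 (H23, made by deleting H3 in an H2-deleted line), or hotspots H3 and H4 (H34, made by deleting H3 in an H4-deleted line), hotspot being the submitters' word for the deleted elements. The labels do not say whether a line was 1 clone, and the labelled CRISPR control (48 h) was not analysed here.

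H3K27ac marks active promoters and enhancers, where acetylases such as p300 and CBP place it and histone deacetylases remove it. When myoblasts leave the cell cycle and differentiate, elements that serve proliferation and the undifferentiated state lose the mark while elements of muscle genes gain it. MyoD, the product of Myod1, is the basic helix-loop-helix factor that commits cells to muscle and binds many of these elements.

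Each condition had 1 library, so no test between conditions was possible and every comparison describes single libraries. The intervals given are 95% Wilson intervals, which cover counting error only, and neighbouring regions are not independent. The lists held from 55585 peaks in the Myod1 knockout to 137960 in the H1 deletion, and the read depth was unknown. A region without a listed peak had no signal past the authors' cutoff, which is not the same as no acetylation. The cutoffs differed. The lowest deposited −log10 p was 4.02 for the Myod1 knockout and 4.13 for wild-type cells at 48 h. It was 3.01 to 3.03 for the 4 hotspot lines. The wild-type list at 48 h held 71281 peaks, against 124609 in H23 and 130473 in H34. A peak listed in H23 or H34 but not in wild-type cells at 48 h therefore cannot be told from a difference of cutoff. No mm9 annotation was used here, so positions are given without gene names, and neither the deletion in Myod1 nor marker genes of myoblasts could be looked up.

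Losing the peak between 12 and 24 h was the most frequent history among regions with a peak at 4 of the 7 times. Of the 35 possible sets of 4 times, and with no peak in H23 or H34, the set of the members held the most regions, 561, followed by 232 with a peak from 0 to 24 h alone. Without the condition on the double deletions, 1498 regions had the time course of the members, against 557 for the next set. Of these 1498, 533 had a peak in both H23 and H34 and serve below as the first comparison class, 221 had one in H23 alone and 183 in H34 alone. The other comparison classes were 617 regions gone by 6 h, with a peak at -24 and 0 h and in none of the other 7 lists, and 19725 kept regions with a peak in all 9 lists.

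Members were short. Their median width was 429 bp (quartiles 327 and 577 bp, range 150 to 1790 bp), and together they covered 265 kb. The 533 regions of the same wild-type history with a peak in both double deletions had a median of 678 bp, the regions gone by 6 h 244 bp, and the kept regions 1762 bp. A merged region grows with each list that adds a peak to it, so these widths follow in part from the number of lists required. Most members were simple: 421 of 561 had exactly 1 peak in each of the 4 early lists, and 140 had 2 or more in at least 1 list. From -24 to 12 h the single peaks inside members had median widths of 205.5, 231, 212 and 221.5 bp, against 244, 263, 280 and 258 bp for all peaks of those lists. In 456 members (81.3%) a stretch was covered by peaks of all 4 early lists, with a median of 110 bp over these 456. The rest were joined only as a chain of partly overlapping peaks, with no base covered at all 4 times.

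The peaks of members ranked below the middle of their lists. The score of each peak is the authors' own value, has no stated unit in the early lists and is used here only as a percentile within its list. From -24 to 12 h the median percentile of the strongest peak in a member was 39.9, 42.7, 34.7 and 42.5. The lists differ in length, so the order of these 4 values shows no change over time. The underlying scores ran from 4.01 to 35.96 (median 9.61) at -24 h, from 4.12 to 32.94 (median 9.75) at 0 h, from 4.62 to 30.38 (median 9.59) at 6 h, and from 4 to 27.6 (median 9.5) at 12 h. The mean of the 4 percentiles had a median of 37.8 (quartiles 28.7 and 48.1, range 6.46 to 78.3) over members. It was 42.4 in the regions kept in both double deletions and 83.0 in the kept regions.

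**Figure D1:**
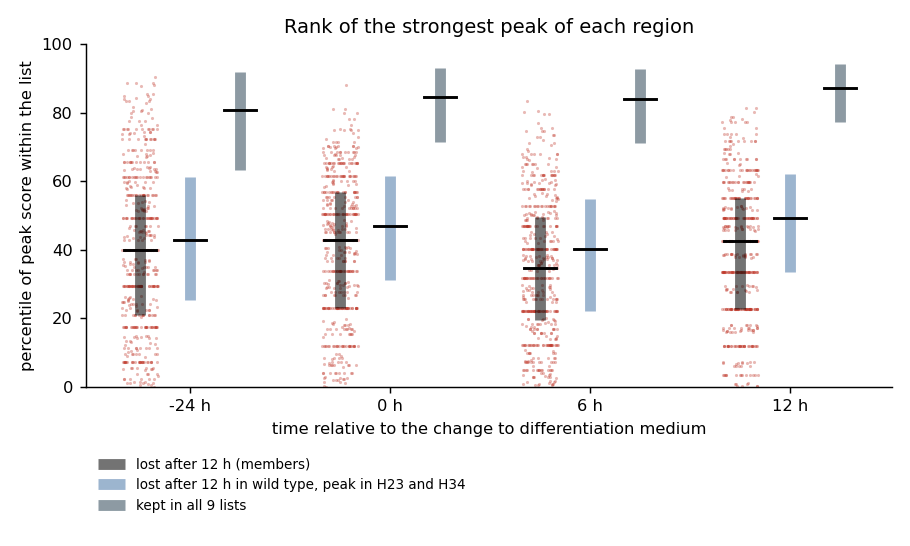
Percentile of the strongest peak score of each region within its list (vertical axis) at 4 times relative to the change of medium (horizontal axis, h); points are the 561 members, thick bars span the quartiles and black lines are medians. The members' medians lie between 34.7 and 42.7, below the kept regions at every time, and the members with a peak past the 80th percentile are few.

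When the 30810 regions with a peak at all 4 early times were sorted by mean percentile into 10 bands of 3081, the weakest band held 310 members (10.1%), and the next 2 held 139 (4.51%) and 62. Bands 4, 5 and 6 held 36, 13 and 1, and the 4 strongest bands held none. Members were thus found among the weaker of the steadily listed early regions, whose scores lie nearer to the cutoff of a list. The part of peak strength in the missing later peaks was not tested.

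**Figure D2:**
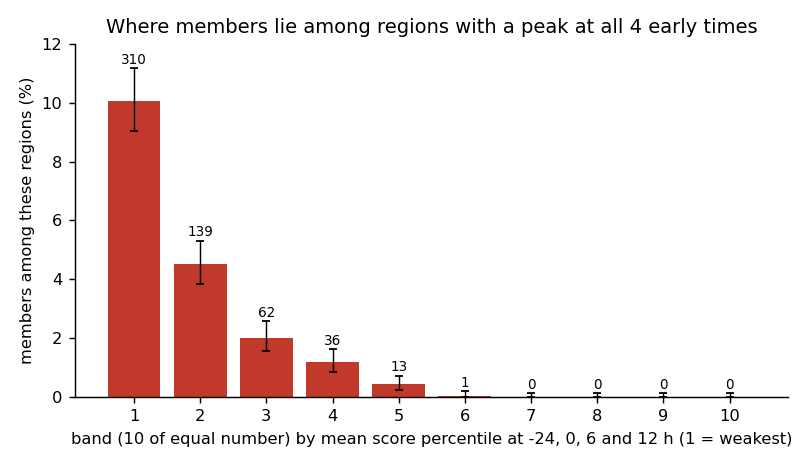
Share of members (vertical axis, %) in each of 10 equal bands of the 30810 regions with a peak at -24, 0, 6 and 12 h, sorted by mean score percentile from weakest (1) to strongest (10); error bars are 95% Wilson intervals and numbers above the bars count members. The share falls from 10.1% in the weakest band to 1 member in band 6 and 0 above it.

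Individual members did not hold their rank from time to time. Within a member the 4 percentiles spanned a median of 36.2 points, 28 members were over the 50th percentile at all 4 times, and 188 were under it at all 4. Across the 561 members Spearman's rho between the percentiles at 2 times ran from 0.0951 (-24 and 12 h) to 0.364 (-24 and 0 h). In the 30249 other regions with a peak at all 4 times it ran from 0.740 to 0.865. The mean percentile had quartiles of 55.6 and 87.9 in those others, a wider span than in members, and regions are not independent. The earliest library, -24 h, gave the highest of the 4 percentiles in 173 members (30.8%). The 0, 6 and 12 h libraries gave it in 150, 93 and 145 (25.8%) members. Among the other regions the -24 h library gave it in 17.7% and the 12 h library in 42.1%.

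The widest member, chr2:28794205-28795994 in mm9, was also the strongest by mean percentile. Its 1790 bp held 8 peaks, and its percentiles were 88.5, 68.6, 74.8 and 81.4 from -24 to 12 h. The nearest peak at 24 h lay 6273 bp away, and the nearest at 48 h 55107 bp away. In the H1 deletion a peak at percentile 37.1 overlapped it, with a fold enrichment of 4.54 in the authors' list, and the Myod1 and H3 lists had none there. It was therefore high at every early time and still listed only in 1 edited line afterwards.

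The next widest members were chr4:140847424-140848878 (1455 bp), chr15:11385761-11387078 (1318 bp), chr7:85741736-85742865 (1130 bp), chr6:51710669-51711751 (1083 bp) and chr17:10914592-10915648 (1057 bp). None of these 5 had a peak in the Myod1, H1 or H3 list. The chr7 region was far from later signal, with its nearest wild-type peak after 12 h at 60420 bp, and its percentiles of 61.3, 71.4, 65.1 and 66.4 from -24 to 12 h were even. The chr15 region instead lay 147 bp from a peak at 48 h, and its percentiles of 85.3, 46.9, 60.1 and 37.6 were not. The chr7 region had another member 121 bp away.

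After the chr2 region the strongest members were chr15:22655484-22656122 (mean percentile 73.4), chr1:58711164-58711821 (72.0), chr15:7789752-7790016 (70.6), chr13:71515483-71516266 (70.4) and chr17:14474033-14474907 (70.3). The first of them kept a peak in the Myod1 knockout, at percentile 26.8, after percentiles of 80.9, 75.1, 80.5 and 57.1 from -24 to 12 h. The other 4 had no peak in any of the Myod1, H1 and H3 lists and were the strongest members of that kind. The chr1 region had percentiles of 83.4, 76.2, 61.8 and 66.4 and lay 293 bp from a kept region. The chr15:7789752 region, 265 bp long, had 63.7, 74.9, 75.6 and 68.1 and lay 76 bp from one. Both were gaps beside acetylation that stayed. The chr13 region, with 75.1, 63.6, 70.4 and 72.5, lay 628367 bp from the nearest kept region and 629108 bp from the nearest Myod1 knockout peak, although peaks at 24 and 72 h lay 2447 and 2454 bp away. The chr17 region had 87.9, 80.9, 49.1 and 63.2, a peak at 48 h 104 bp away and its nearest Myod1 knockout peak at 133381 bp.

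Members rarely overlapped a Myod1 knockout peak. Such a peak was found in 10 of 561 members (1.78%, interval 0.971 to 3.25), against 16.4 percent of all merged regions and 66.6 percent of regions with a peak at all 4 early times. In the H1 deletion 112 members (19.96%, 16.9 to 23.5) had a peak, against backgrounds of 44.1 and 89.7 percent. In the H3 deletion 30 members (5.35%, 3.77 to 7.53) had one, against 36.3 and 82.5 percent. The same 3 shares in the regions kept in both double deletions were 24.6, 64.0 and 66.4% for Myod1, H1 and H3. In regions gone by 6 h they were 2.11, 9.08 and 3.40%, and in kept regions 85.7, 99.2 and 96.7%. Members and regions gone by 6 h were chosen to lack a peak in wild-type cells, H23 and H34 at 48 h. The regions kept in both double deletions also lacked a wild-type peak, but were chosen to have one in H23 and H34, which lack H3. Kept regions were chosen to have a peak in all 9 lists. The lower shares of members are therefore partly set by the rule, and the higher shares of these 2 classes are too.

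**Figure D3:**
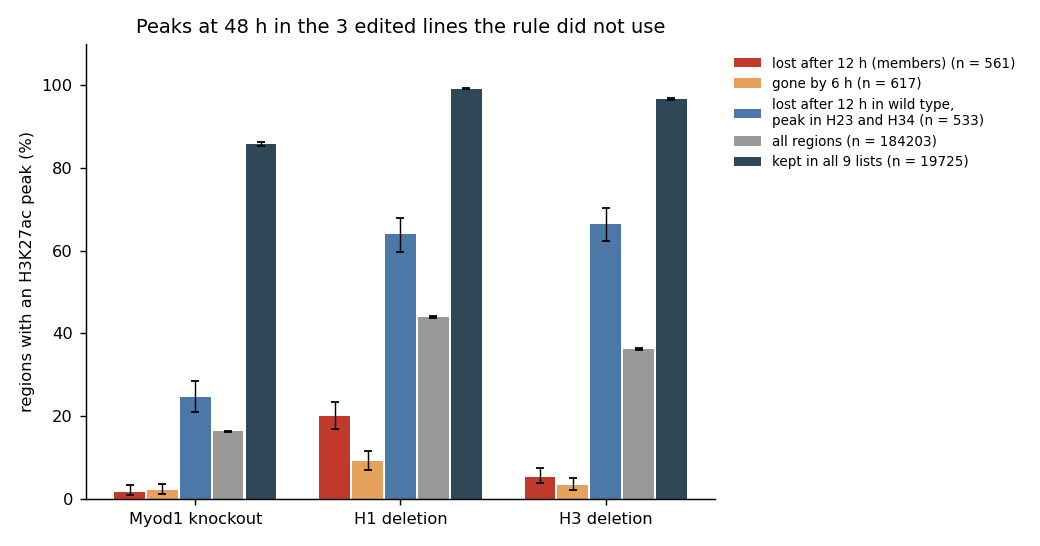
Share of regions with a peak (vertical axis, %) at 48 h in the Myod1 knockout, the H1 deletion and the H3 deletion, for 5 classes of regions; error bars are 95% Wilson intervals, which cover counting error only. Members (1.78, 19.96 and 5.35%) lie below all regions and below regions of the same wild-type history with a peak in H23 and H34 in each of the 3 lines. They lie above regions gone by 6 h in the H1 deletion (9.08%). In the H3 deletion (3.40%) the intervals overlap, 3.77 to 7.53% in members and 2.24 to 5.15% in regions gone by 6 h. Members were also wider, with a median of 429 against 244 bp. Members were chosen to lack a peak in wild-type cells, H23 and H34 at 48 h, so their lower shares are partly set by the rule.

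The shares were also taken without the condition on the double deletions. In a merge of the 7 time course lists with no condition on H23 and H34, 1908 regions had the history of members, and 14.6, 44.5 and 40.3% of them overlapped a Myod1 knockout, H1 deletion and H3 deletion peak. All regions of that merge had 24.8, 60.2 and 49.8%. The 221 regions that differed from members only by a peak in H23 had shares of 12.2% (8.53 to 17.2), 39.8% and 38.9% for Myod1, H1 and H3. The 183 regions that differed only by a peak in H34 had 2.19% (0.853 to 5.48), 31.7% and 14.2%.

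Taken by combination, 427 members (76.1%) had no peak in any of the 3 lists and 134 (23.9%) had one in at least 1. The share with at least 1 was 53.1% over all regions and 92.5% over regions with a peak at all 4 early times. It was 85.4% in regions kept in both double deletions and 13.1% in regions gone by 6 h, which were emptier than members. A peak in the H1 deletion alone was found in 94 members, in the H3 deletion alone in 15, in both in 15, in the Myod1 knockout alone in 7, and in the Myod1 knockout and H1 deletion in 3. Of the 10 members with a Myod1 knockout peak, 0 had an H3 deletion peak (interval 0 to 27.8%), against 5.44% of the 551 others. So few members cannot show whether such peaks avoid each other. The peak in H1 was more frequent in members with an H3 peak, 15 of 30 (50%, 33.2 to 66.8), than in those without, 97 of 531 (18.3%, 15.2 to 21.8). This split was not taken over all regions, so it is not shown to be particular to members.

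The Myod1 knockout peaks in members were all weak. Their percentiles of −log10 p within that list ran from 0.622 to 34.1 with a median of 22.5. That median was 59.6 over all regions with such a peak and 34.1 in regions kept in both double deletions. It was 27.4 in regions gone by 6 h, so a low median was not particular to members. The fold enrichment in members had a median of 4.80. Tied at the highest value were 4 members, chr1:152413877-152414068, chr11:57486032-57486613, chr2:131632940-131633326 and chr9:87977849-87978164, each with a fold of 5.30 and a −log10 p of 7.24. The early percentiles of these 4 were low to middling, with means of 31.5, 25.6, 15.9 and 49.7, and only the chr1 region also had an H1 peak, at percentile 54.7. The 112 H1 peaks had a median percentile of 37.1 and a range of 0.108 to 96.0, and the 30 H3 peaks a median of 25.7 and a range of 1.89 to 86.3. A few were strong. Chosen after their values were seen, chr8:63342232-63342416 had an H1 peak with a fold of 17.6 and lay 241 bp from a kept region, and chr6:86026865-86027014, 150 bp long, had an H3 peak with a fold of 14.1 and lay 114379 bp from one.

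Among members of different width the intervals of these shares overlapped. In 4 width classes split at the members' quartiles, from narrowest to widest, the Myod1 share was 1.42, 0.709, 2.86 and 2.16%, the H1 share 24.8, 18.4, 20 and 16.5%, and the H3 share 5.67, 4.96, 4.29 and 6.47%. In the narrowest class, all merged regions of those widths had 1.95, 22.3 and 13.7%, so there the members' Myod1 and H1 shares were near the background of short regions. In the second class all regions had 5.43, 41.1 and 30.7%, in the third 10.5, 52.3 and 42.2%, and in the widest 47.2, 80.9 and 76.0%. Regions kept in both double deletions had 17.1 to 27.5% for Myod1 in the 4 width classes. By mean percentile, bands split at 30, 40 and 50 were chosen after the data were seen. From weakest to strongest, members had a Myod1 share of 2.35, 0.667, 1.56 and 2.65%, each resting on 1 to 4 regions. The shares in regions kept in both double deletions were 18.9, 20.5, 25.6 and 30.2%. Within a class or band the widths and percentiles of the 2 kinds of region still differed, and the part of width and strength in these shares was not tested.

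With a peak within 1 kb counted, the shares became 11.2% for Myod1, 43.5% for H1 and 23.4% for H3, against 28.2, 63.7 and 54.9% of all regions. With only the 55585 strongest peaks of each list, 381 regions met the rule, of which the reported members overlapped few (91 of 561, 16.2%), and their shares were 3.94, 8.92 and 7.09% against 31.2, 44.7 and 43.5%.

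Later peaks lay near most members, as they did for regions at large. A peak of the 24, 48 or 72 h list lay within 1 kb of 323 members (57.6%, 53.4 to 61.6) and within 5 kb of 417 (74.3%). Over all merged regions, those that overlap a later peak included, the 2 shares were 62.0 and 79.8%. The corresponding share within 1 kb was 51.2% for regions kept in both double deletions and 43.8% for those gone by 6 h. A kept region lay within 1 kb of 103 members, 1 kb to 12500 bp from 136, 12500 bp to 100 kb from 154 and over 100 kb from 168. In these 4 distance classes, chosen after the data were seen, 2.91, 1.47, 1.95 and 1.19% of members had a Myod1 knockout peak and 25.2, 22.8, 16.9 and 17.3% an H1 deletion peak, with overlapping intervals between the nearest and the farthest class. Only 186 members lay over 1 kb from every peak of the 5 lists required to be empty, and 150 from every peak of those lists and of the 3 other edited lines. At the edge of the rule, the nearest peak of the 5 empty lists lay 0, 7, 8, 9 and 11 bp from the 5 members nearest to one, 28 members had one within 50 bp and 152 within 200 bp. Just outside the rule, 941 regions had a peak in exactly 1 of the 5 lists, among them 330 at 24 h and 221 in H23, and the smallest overlaps that kept them out were 38 bp at 24 h and 7 bp in H23. The extra peaks were themselves modest, with a median percentile of 33.1 at 24 h and 45.8 in H23.

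The Myod1 list was the emptiest around members. Its nearest peak lay over 50 kb away for 220 members (39.2%, 35.3 to 43.3), against 31.0% for the H3 deletion, 20.9% for H23, 19.8% for H34, 18.7% for wild-type cells at 48 h and 15.9% for the H1 deletion. It was also the shortest list. For regions kept in both double deletions the Myod1 value was 11.1% and the H3 value 4.69%, and for regions gone by 6 h they were 31.8 and 28.5%. For the 1498 regions with the time course of members they were 25.2 and 17.4%. These shares were not taken over all merged regions, so they are not shown to be particular to members. The distance of 50 kb was chosen after the data were seen.

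Kept regions, which had a peak at all 7 times and in both double deletions, less often had a Myod1 knockout peak the nearer they were to a member. Of the 107 kept regions within 1 kb of a member, 66 (61.7%, 52.2 to 70.3) had a Myod1 knockout peak. The share was 71.7% (66.2 to 76.7) of 276 at 1 kb to 12500 bp, 80% (77.6 to 82.2) of 1125 at 12500 bp to 100 kb and 86.4% (85.9 to 86.9) of 18217 farther away. The median mean percentile was 86.9 in the nearest kept regions and 82.8 in the farthest, and the part of peak strength was not tested. Among kept regions over the 80th percentile the 4 shares were 70.7, 81.7, 90.7 and 95.5%. By distance to the regions kept in both double deletions the 4 shares were 87.0, 84.3, 85.5 and 85.8%. Those regions were chosen to have a peak in H23 and H34. Distance to the regions gone by 6 h was not taken, so the order is not shown to be particular to members. In the H3 deletion the shares by distance to a member were 87.9, 92.4, 94.8 and 96.9%, and in the H1 deletion 97.2, 96.7, 98.6 and 99.3%. On the chromosomes whose covered share differed at most 1.5-fold among the 48 h libraries the Myod1 shares were 64.6, 71.4, 80.5 and 87.6%. The distance classes were chosen after the data were seen.

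**Figure D4:**
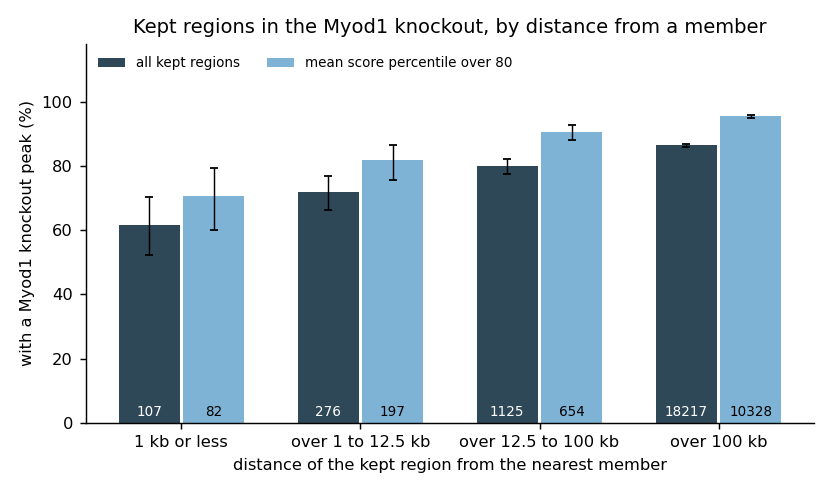
Share of kept regions (a peak in all 9 lists used for the rule) with a Myod1 knockout peak (vertical axis, %), by distance to the nearest member (horizontal axis), for all kept regions and for those with a mean score percentile over 80; error bars are 95% Wilson intervals and the numbers in the bars count regions. The share goes from 61.7% within 1 kb to 86.4% beyond 100 kb, and from 70.7 to 95.5% in the stronger regions.

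Some members lay near each other, as did some regions gone by 6 h. Another member lay within 50 kb of 162 (28.9%, 25.3 to 32.8). Each against its own class, the share was 15.4% (12.6 to 18.7) of the 533 regions kept in both double deletions. It was 24.1% (20.9 to 27.7) of the 617 regions gone by 6 h, an interval that overlaps that of members. Nearness is therefore not shown to be particular to members. Within 12500 bp the values were 21.6, 8.07 and 18.2%. Larger classes give higher shares by their number alone, and the class of members is only slightly larger than the first of these classes and smaller than the second. Joined at 50 kb, members formed 469 chains, of which 70 held 2 or more and 14 held 3 or more. When peaks within 1 kb were first merged, 194 regions met the rule and 3.09% lay within 50 kb of another. That merge joins near neighbours into 1 region and drops members close to a later peak.

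The largest chain was 6 members in 22894 bp at chr8:90013383-90036276. The peaks in this span numbered 27, 18, 20 and 21 from -24 to 12 h, then 9, 4 and 5 at 24, 48 and 72 h. The H1 deletion had 1 peak there and the H23, H34, H3 and Myod1 lines had none, also in the 120 kb around the centre of the chain. The whole domain was thus listed in wild-type cells throughout, with fewer peaks late, and was empty in 4 of the 5 edited lines. The chain was picked for its number of members, so the fewer late peaks and the empty H23 and H34 lists partly follow from the rule. H23, H34 and H3 share the H3 deletion, so these lines are not separate readouts. The nearest kept region lay 413923 bp away.

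**Figure D5:**
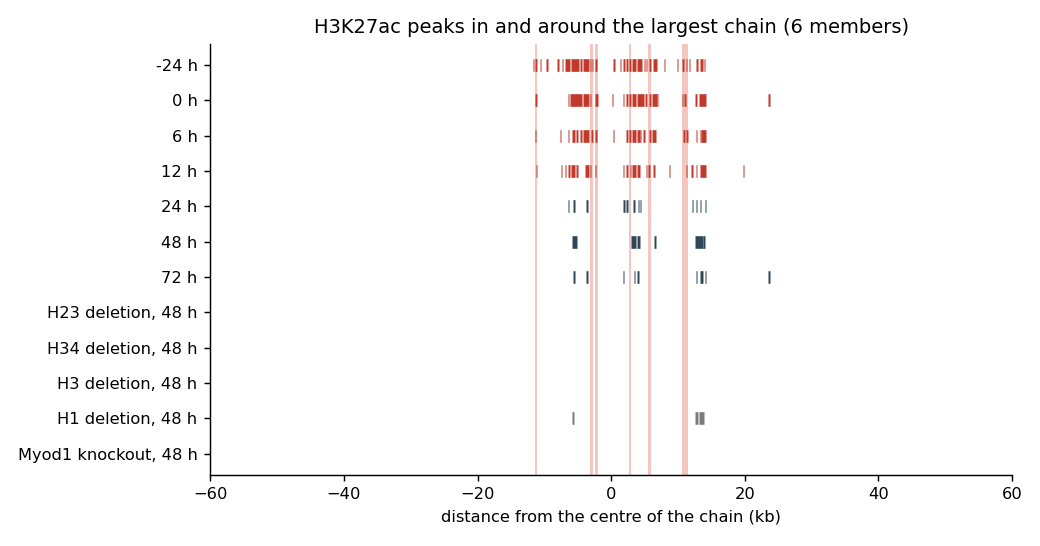
Peaks (bars) of the 12 libraries over 120 kb around the largest chain, by distance from its centre (horizontal axis, kb), one row per library, red for the 4 early times, dark for later wild-type times and grey for edited lines; pale bands are the 6 members. Peaks are dense at the 4 early times, fewer at 24 to 72 h, 3 in the H1 deletion, and 0 in the Myod1 knockout and the 3 lines without H3.

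The chain at chr7:89552567-89569929 held 5 members in 17363 bp and was alike, with 12, 15, 10 and 13 peaks from -24 to 12 h, 4, 1 and 3 at 24, 48 and 72 h, 1 each in H23, H34 and H1, and 0 in H3 and the Myod1 knockout. The chain at chr1:140226914-140231436 held 4 members in 4523 bp. It had 7, 7, 5 and 5 early peaks and none in any of the 8 later lists, although a kept region lay 59 bp from it. The chain at chr5:112690237-112726606, also of 4 members, was the opposite kind. It spanned 36370 bp with 28, 30, 26 and 28 early peaks and then 33, 8 and 26 at 24, 48 and 72 h and 17 to 20 in every edited line, so its members were gaps within a dense domain. The last, chr1:92729914-92797887, spread 4 members over 67974 bp and had 20, 23, 14 and 22 early peaks, 10, 6 and 6 later wild-type peaks and 8 to 11 in every edited line.

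Members were spread over all 19 autosomes and the X chromosome. Their share of regions with a peak at all 4 early times was highest on chromosome 6 (52 members, 3.28%, 2.51 to 4.28), chromosome 18 (31, 3.14%) and chromosome 14 (37, 3.13%), and lowest on the X chromosome (4, 0.694%, 0.270 to 1.78) and chromosome 2 (21, 0.940%). The covered bases of the 48 h libraries were not spread alike: on 6 chromosomes, which held 159 members, the share differed over 1.5-fold among these libraries. On chromosome 14 H34 had 1.66% of its covered bases and wild-type cells 3.27%. Chromosome 6 was just under that limit at 1.46-fold, with 4.10% in H23, 4.40% in H34 and 5.18% in wild-type cells. The part of this in the members' number on chromosomes 6 and 14 was not tested. Without the 6 uneven chromosomes, which did not include chromosome 6, 402 members were left. Of these, 2.24, 17.9 and 4.48% carried a Myod1, H1 or H3 peak.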

How the data were processed

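H3K27ac peaks of 12 of the 13 labelled C2C12 samples were analysed. The submitters' processing notes name MACS2 2.1.0 as the peak caller and mm9 as the build. The sources used here give no aligner, control library or cutoff. There is 1 list per library. Each of the 6 deposited time course lists other than 48 h gives a score of no stated unit per peak. The 6 deposited lists at 48 h give a score, the fold enrichment, and the −log10 p and −log10 q, as the authors made them. These values served only to rank or filter peaks within a list. Coordinates are mm9, counted from 1.

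Peaks of 9 lists were merged at an overlap of 1 bp. A region's percentile is that of its strongest peak (score, or −log10 p at 48 h) among the peaks of the list, and distances are between nearest edges. The members and the comparison classes were chosen with earlier results of these data known. Named regions were the 6 widest members, the 6 of highest mean percentile, the 5 chains with most members, the 4 with the highest Myod1 knockout percentile, and the 4 of highest mean percentile with no peak in the Myod1, H1 and H3 lists. With 1 library per condition no test was run. The overlap code was tested on simulated data. Alternatives were stricter peaks, equal list lengths, a 50% overlap, joining within 1 kb, a 1 kb margin of absence, the time course lists alone, leaving out uneven chromosomes, a −log10 p floor, and other distances and width classes. Python 3.11.15, numpy 2.4.6, pandas 2.3.3, scipy 1.17.1 and matplotlib 3.10.9 were used.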

Additional observations from a re-analysis of the deposited data

How the results depend on the processing

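Of 75 recomputed values of 8 results, 46 stayed within the interval of the reported value, or within 1.5 times of it for the number of members, and 29 moved. The members' shares with a Myod1, H1 or H3 peak stayed below those of all regions in the alternatives, except the H1 share in the narrowest width class (24.8% against 22.3% of all regions of those widths). The Myod1 share in that class (1.42%, 0.390 to 5.02) was near the 1.95% of all regions. In each alternative members still lacked a peak at 24, 48 and 72 h, which all regions need not, so this order is partly set by the rule. The number of members became 194 when peaks within 1 kb were joined, 186 when no peak within 1 kb was allowed in the 5 empty lists, and 1908 with the time course lists alone, all by construction. The median width was 552 bp with equal list lengths and 1080 bp with peaks within 1 kb joined, and the median percentile was 40.3 with the time course alone. The share within 50 kb of another member was 22.6% with equal list lengths, 3.09% with joining within 1 kb, 24.2% with the 1 kb margin, 38.1% with the time course alone, and 21.6 and 40.3% at 12500 bp and 200 kb. The share within 1 kb of a later peak was 51.7% with equal list lengths and 64.6% with the time course alone, and 74.3% at 5 kb. With joining or a margin of 1 kb this share is 0 by construction and was not run. The Myod1 share was 3.94% with equal list lengths, 0.538% with the margin, 14.6% with the time course alone, 11.2% with knockout peaks within 1 kb and 0.709% in the second width class. The H1 share was 15.03% with stricter peaks, 8.92% with equal list lengths, 14.0% with the margin, 44.5% with the time course alone, 43.5% with peaks within 1 kb, and 24.8 and 16.5% in the first and last width class. The H3 share was 40.3% with the time course alone and 23.4% with peaks within 1 kb. The cause was not tested beyond what the alternatives' construction gives. No paired analysis was possible because each condition had 1 library. With read depth unknown, a peak under a list's cutoff cannot be told from no acetylation.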
